A study of Mus musculus with 19 samples.

Results

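The 45 constitutive proteasome genes of the mouse were followed in RNA from sorted hippocampal microglia. They were taken by symbol from 23951 listed genes: every gene of the Psma, Psmb, Psmc, Psmd, Psme, Psmf and Psmg series, without the 3 inducible catalytic genes Psmb8, Psmb9 and Psmb10. The set holds 8 alpha and 8 beta genes of the 20S core, 6 ATPase and 11 non-ATPase genes of the 19S particle, 3 assembly chaperones of the 19S particle, 5 activators or regulators and 4 assembly chaperones of the 20S core. In either table, 44 of the 45 genes had a mean of at least 1 FPKM and were tested. FPKM is fragments scaled to transcript length and to the fragments mapped in the library, so levels can be set beside each other between genes of one library. The gene left out, Psmb11, encodes the catalytic subunit of the thymus, and its group means lay between 0.107 and 0.573 FPKM.

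The study profiled 15 RNA libraries in 5 groups of 3, and all 5 groups carried 1 allele of an inducible Cre (Cx3cr1CreER+/-) and received tamoxifen at 50 mg/kg on 5 days. At 3 months of age, mice without and with PU.1 fl/fl were collected 1 week after tamoxifen. At 4.5 months of age the groups were CK controls, CK-p25 mice, and CK-p25 mice with PU.1 fl/fl (CK-p25 PU.1 cKO, conditional knockout). In these mice tamoxifen was given at p25 induction and tissue was collected 6 weeks later. The Cre acts in cells that express Cx3cr1, which are microglia but also some other macrophages, while p25 is a neuronal transgene of forebrain neurons, which then degenerate. Cells were sorted for CD11b and CD45.

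The 3-month labels contradict each other. The titles, and the descriptions that name the table columns, set the groups used here, labelled control and labelled PU.1 cKO. The source names point the other way. The columns themselves are named MIC_PU1 for labelled control and MIC_CX3CR1 for labelled PU.1 cKO, so their wording does not follow the titles either. Spi1, the gene of PU.1, stood at 409, 338 and 337 FPKM under the PU.1 cKO titles and at 261, 105 and 248 FPKM under the control titles, which goes against the titles. The other reading turns the sign of every 3-month difference below. The microglial markers P2ry12 and Cx3cr1 were high in all 5 groups, and the 9 genes of the microglia list were detected in each. Their sum ranged from 8264 to 14935 FPKM in labelled control and from 28397 to 32787 FPKM in labelled PU.1 cKO. At 4.5 months it ranged from 15526 to 28214 FPKM. CK-p25 replicate 3 stands apart at 4.5 months: the sequence file names in the labels give it a run of its own, and 42.1% of its genes were listed at 0, against 31.6% to 36.4% in the other 8 libraries. Whether libraries of a group stem from different animals is not in the labels, and so the p-values speak of the variation among these libraries, part of which may be technical.

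The proteasome is the main protease of the cytosol and nucleus. Its 20S core is a barrel of alpha and beta rings, and the active sites lie on 3 beta subunits: Psmb6 (caspase-like activity), Psmb7 (trypsin-like) and Psmb5 (chymotrypsin-like). The 19S particle caps the barrel, binds ubiquitin chains, removes them and unfolds the substrate with its ATPase ring. Interferon gamma induces Psmb9, Psmb10 and Psmb8, which take the places of Psmb6, Psmb7 and Psmb5 in the immunoproteasome, and Psme1 and Psme2, the subunits of the PA28 activator, which opens the core without ubiquitin. Transcription factors of the NRF family bind antioxidant response elements in front of many proteasome genes.

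In CK microglia the 14 widely expressed 20S genes had means from 49.2 FPKM (Psmb7) to 140.2 FPKM (Psmb3). The 17 genes of the 19S particle were lower on average, from 36.2 FPKM (Psmd12) to 72.4 FPKM (Psmc3), and their range overlapped with that of the 20S genes. The chaperones were lower again: Psmd9 averaged 8.79 FPKM, Psmg4 11.5 FPKM, Psmg1 13.5 FPKM and Psmg3 19 FPKM, while Psmd5, at 34.4 FPKM, came close to the lowest 19S gene. Among the activators, Psme1 averaged 87.8 ± 5.76 FPKM (SD, n = 3) and Psme2 72.4 ± 3.12 FPKM, and Psme3, which encodes the nuclear activator PA28 gamma, 38.9 ± 3.27 FPKM. Psmf1, a regulator first described as an inhibitor of the core, averaged 12.5 FPKM, and Psme4, the gene of the PA200 activator, 4.69 FPKM. The testis-linked alpha gene Psma8 was far below its relatives, at 1.88 FPKM. At 3 months Psma1 was the highest alpha gene (346 FPKM in labelled control, 146 FPKM in labelled PU.1 cKO) and Psmb2 the highest beta gene (312 and 166 FPKM). There the chaperone gene Psmd5 (65.8 and 52.9 FPKM) lay above the lowest gene of the 19S particle, Psmc6 (62.2 and 35.9 FPKM). Per gene, those 14 20S genes stood above the 19S genes by a ratio of 1.84 to 1.94 in the CK libraries and of 1.32 to 1.79 in the 6 libraries of 3 months. The spread within groups differed: the median coefficient of variation of the tested genes was 6.24% in CK, 8.2% in CK-p25 PU.1 cKO, 15.4% in CK-p25, 10.7% in labelled PU.1 cKO and 32.3% in labelled control.

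**Figure D1:**
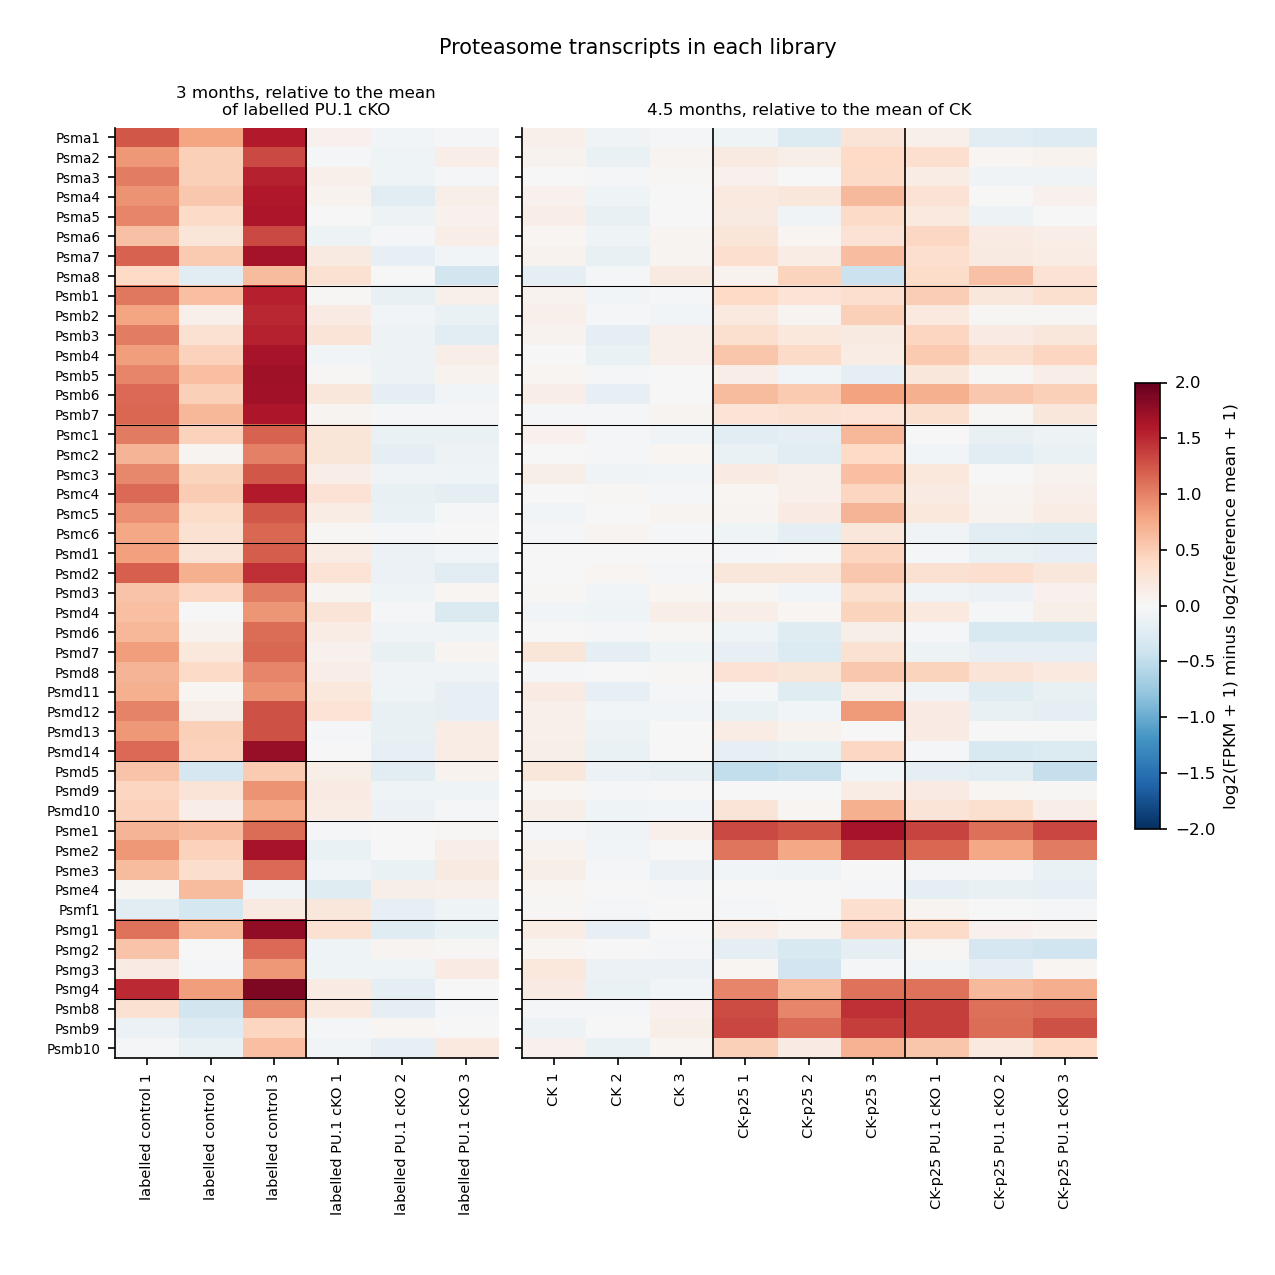
Level of each proteasome gene (rows) in each library (columns), as log2(FPKM + 1) minus the log2 of the reference group's mean plus 1; the reference is labelled PU.1 cKO at 3 months and CK at 4.5 months, and lines separate groups and gene classes. Nearly all rows are raised in the 3 labelled control libraries, most in replicate 3, while at 4.5 months the raised rows are Psme1, Psme2, Psmg4 and Psmb6 beside the inducible genes Psmb8 and Psmb9.

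Promoter stretches are shown for motifs that some of the proteasome genes hold. A link between these motifs and the differences described next was not tested. RefSeq promoter windows (GRCm38.p6, 250 bases before and 50 after each start) were found for 37 of the 45 genes, in 40 windows, and both strands were searched. The ETS motif CCGGAAG was in 37.5% of the 40 windows, against 8.86% of all 32851 windows. Its 14 genes included 9 of the 14 genes of the 19S particle that had a window, and 1 of the 12 genes of the 20S core. The antioxidant response element core TGACNNNGC was in 15% of the 40 windows and in 12.4% of all, and its genes were Psmb5, Psmb6, Psmc6, Psmd9, Psmd12 and Psme4. The interferon response-like motif, GAAA and GAAA with a pair of any letters between them, was in 12.5% and 3.44%, in Psmb3, Psmd4, Psmd9, Psme1 and Psmg4. The PU.1-like motif GAGGAAG, which shares its last 5 letters with the ETS motif, was in 15% and 13.6%, and CCAAT in 32.5% and 37.4%. The stretches run 5′ to 3′ on the strand of the gene, with the motif or its reverse complement in capitals. For catalytic genes with the antioxidant response element core, they are Psmb5 (chr14:54618023-54618052, minus strand) and Psmb6 (chr11:70525338-70525367, plus strand):
Psmb5: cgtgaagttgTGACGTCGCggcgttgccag
Psmb6: ctaaagagagTGACGGAGCgctttacgacg
For the ETS motif in the 19S particle, they are Psmc1 (chr12:100110163-100110192), Psmc6 (chr14:45329713-45329742) and Psmd2 (chr16:20651615-20651644), all on the plus strand:
Psmc1: tggtggatgcaCTTCCGGcggtggcgattt
Psmc6: aggcgggccagCCGGAAGgggcggagccag
Psmd2: tccgcagggcgCTTCCGGtctggaggacaa
For the interferon response-like motif, Psme1 (chr14:55578493-55578522) and Psmg4 (chr13:34162969-34162998), both on the plus strand, are shown because they were among the genes that rose most in CK-p25:
Psme1: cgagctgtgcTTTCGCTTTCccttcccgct
Psmg4: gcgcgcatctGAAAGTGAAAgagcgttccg
A match describes these letters and is not a site of binding, and where a motif is absent the window lacks those letters only.

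The 3-month groups were compared to ask what loss of PU.1 does to microglia. Of the 44 tested genes, 25 were lower in the libraries labelled PU.1 cKO than in those labelled control and 0 were higher (limma, Benjamini-Hochberg adjusted p under 0.05). Over all 10845 genes tested, 17.8% were called lower, 12.4% higher and so 30.1% in either direction. The log2 difference was negative for 43 of the 44, with a median of -0.83, against -0.03 over all genes, and the exception was Psmf1 (0.12 ± 0.21, SE). The groups did not overlap for 31 of the 44, all lower, against 26.9% of all genes that were lower without overlap, 21.9% that were higher and 48.8% of either kind. The summed level of the 45 genes made up 0.609%, 0.593% and 0.575% of the total FPKM in labelled PU.1 cKO and 1.09%, 0.952% and 1.36% in labelled control. The direction follows the titles, which Spi1 goes against. As these are bulk samples, fewer cells of a type and less RNA per cell cannot be told apart.

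Of the 20S core, 6 of 8 alpha and 5 of 7 beta genes were lower in labelled PU.1 cKO, with median log2 differences of -1.01 and -1.07. Psma1, whose product is in the alpha ring, measured 155, 140.0 and 142 FPKM in labelled PU.1 cKO and 345, 253 and 439 FPKM in labelled control. The groups lay far apart, at -1.21 ± 0.23 (adjusted p = 0.00869 by limma). Psmb5 measured 97.2, 89.6 and 101 FPKM against 189, 146 and 313 FPKM, a difference of -1.09 ± 0.28 (adjusted p = 0.0256 by limma). Its groups did not overlap, and the labelled control libraries spread more than the others. Psmb6 measured 143, 107 and 119 FPKM against 269, 172 and 396 FPKM (-1.11 ± 0.31, adjusted p = 0.0333 by limma). Psmb7 measured 55.2, 52.1 and 51.5 FPKM against 119, 84.8 and 165 FPKM (-1.15 ± 0.25, adjusted p = 0.0138 by limma). So the genes of all 3 active sites were lower in labelled PU.1 cKO by similar amounts. Psma7 measured 129, 101 and 109.5 FPKM against 257, 163 and 363 FPKM, again without overlap (-1.13 ± 0.30). The 4 genes that did not pass were Psma6 (-0.72 ± 0.28), Psma8 (-0.29 ± 0.29), Psmb2 (-0.80 ± 0.34) and Psmb3 (-0.97 ± 0.32). The inducible counterpart of Psmb6, Psmb9, measured 69.5, 72.4 and 70.4 FPKM in labelled PU.1 cKO and 64.9, 58.9 and 96.1 FPKM in labelled control, and the groups overlapped (-0.02 ± 0.21, 95% interval -0.52 to 0.48). Psmb8 (-0.30 ± 0.33) and Psmb10 (-0.15 ± 0.24) did not pass either. The sum of the 3 inducible catalytic genes over that of the 3 constitutive ones was 1.22, 1.24 and 1.26 in labelled PU.1 cKO and 0.652, 0.684 and 0.665 in labelled control, a narrow range in each group.

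Of the 19S particle, 5 of 6 ATPase and 5 of 11 non-ATPase genes were lower in labelled PU.1 cKO, with medians of -0.87 and -0.73. The ATPase that did not pass was Psmc2 (-0.59 ± 0.27), and the largest difference among ATPases was that of Psmc4 (-1.09 ± 0.29). Psmd2, a scaffold of the particle, measured 117, 89.5 and 84.0 FPKM against 224, 158 and 269 FPKM. The groups did not overlap, and the difference was -1.14 ± 0.25 (adjusted p = 0.0135 by limma). Psmd14, the deubiquitinase that removes chains from substrates, measured 49.6, 44.3 and 54.9 FPKM against 110.0, 68.6 and 169 FPKM (-1.12 ± 0.32, adjusted p = 0.0342 by limma). Psmd3 (-0.68), Psmd8 (-0.68) and Psmd13 (-0.88) were lower as well. Psmd4, a ubiquitin receptor, measured 102, 84.0 and 69.3 FPKM against 130.2, 84.7 and 157 FPKM, so its groups overlapped (-0.51 ± 0.27, adjusted p = 0.185 by limma). Psmd1, Psmd6, Psmd7, Psmd11 and Psmd12 did not pass, with differences from -0.56 to -0.81. None of the 3 chaperones of the particle passed: Psmd5 differed by -0.26 ± 0.27, Psmd9 by -0.53 ± 0.21 and Psmd10 by -0.45 ± 0.20.

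Among activators, Psme1 measured 120.0, 124 and 125 FPKM in labelled PU.1 cKO and 198, 189 and 267 FPKM in labelled control (-0.80 ± 0.19, adjusted p = 0.0182 by limma). Psme2 measured 75.8, 82.8 and 90.9 FPKM against 153, 115 and 264 FPKM (-1.0 ± 0.30, adjusted p = 0.0433 by limma). Both PA28 subunits were thus lower without overlap. Psme3 measured 39.3, 37.0 and 46.3 FPKM against 63.7, 52.6 and 90.9 FPKM and did not pass (-0.71 ± 0.23, adjusted p = 0.0529 by limma). Psme4 measured 3.67, 5.05 and 4.93 FPKM against 4.78, 7.57 and 4.30 FPKM, with overlap (-0.22 ± 0.25). Among the 20S chaperones, Psmg4 had the largest difference of all 44 genes. It measured 8.58, 6.60 and 7.57 FPKM in labelled PU.1 cKO and 23.3, 14.4 and 30.5 FPKM in labelled control (-1.41 ± 0.28, adjusted p = 0.00958 by limma). Psmg1 was lower too (-1.20 ± 0.30), while Psmg2 (-0.56 ± 0.28) and Psmg3 (-0.33 ± 0.25) did not pass.

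**Figure D2:**
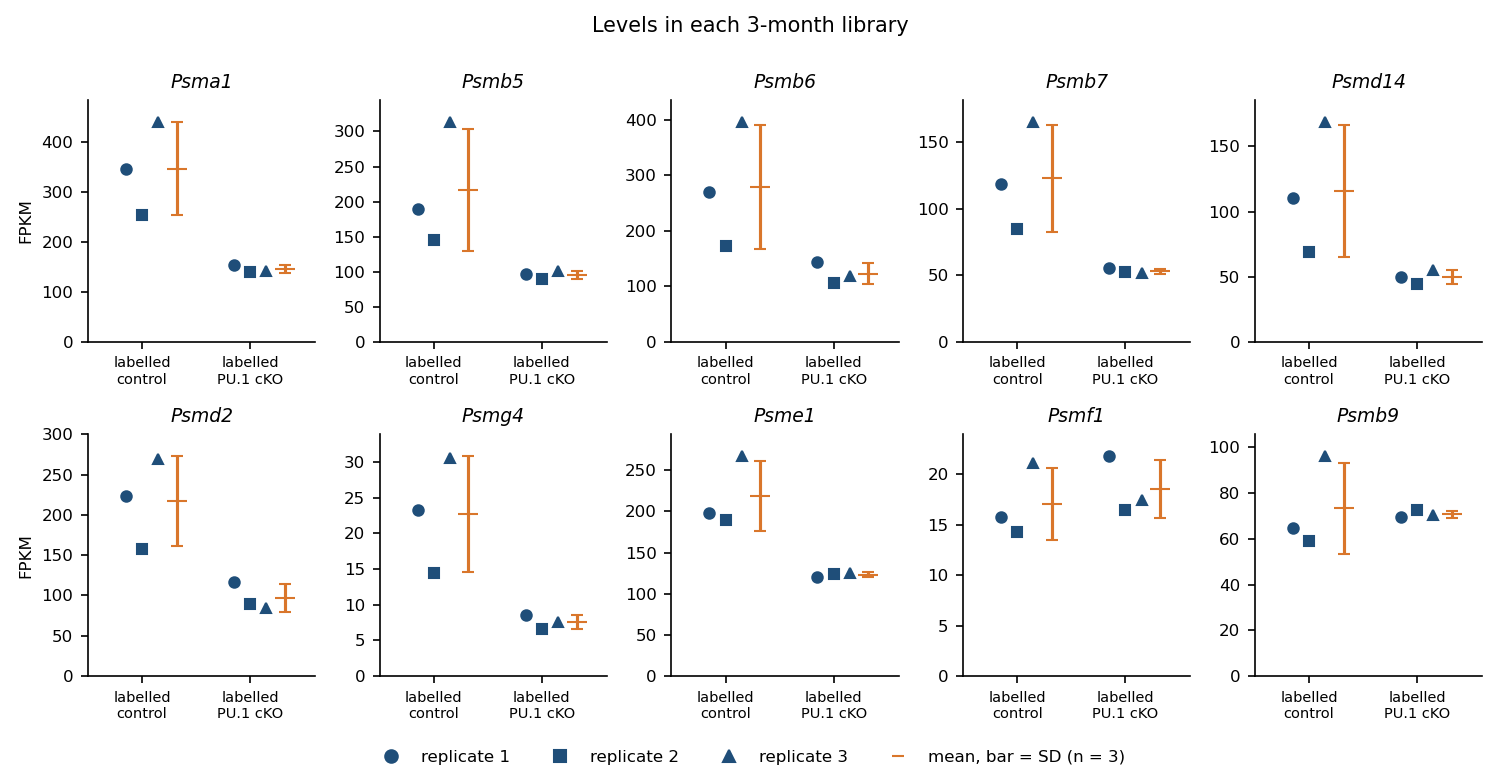
Level in FPKM (vertical axes, from 0) of 8 proteasome genes, Psmf1 and the inducible gene Psmb9 in the 3 libraries of each 3-month group, with the mean and SD (n = 3). The groups of Psma1, Psmb5, Psmb6, Psmb7, Psmd14, Psmd2, Psmg4 and Psme1 do not overlap, those of Psmf1 and Psmb9 do, and labelled control replicate 3 is the highest library of its group in each panel.

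Within labelled control the proteasome genes moved together: replicate 3 was the highest of the group for 42 of the 44 tested genes and replicate 2 the lowest for 43 of the 44, against 43.3% and 46.0% of all genes. Without replicate 3, 15 genes were lower and the median was -0.65, and without replicate 2, 40 were lower and the median was -1.09; in both cases 43 of 44 differences were negative. The count was 5 without labelled control replicate 1, and 7, 2 and 2 without labelled PU.1 cKO replicates 1, 2 and 3, with medians from -0.79 to -0.88. Psma1 and Psmg4 passed under every alternative run, while Psmb5, Psmb6, Psmb7, Psma7, Psmd2, Psmd14, Psme1 and Psme2 each missed the threshold under some of those that left out a library. The count was 13 with no filter on low values and 18 with median centring, where Psme2 also missed the threshold (adjusted p = 0.0579 by limma). Quantile normalization moved the median of all genes from -0.03 to 0.09. It left 29 of the 44 lower, with a median of -0.55, and moved the share of higher genes among all calls from 41.1% to 53.0%.

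Markers of other cells differed between the same libraries. Of the microglia list 8 of 9 genes were higher in labelled PU.1 cKO. Of the border macrophage list 4 of 6 were lower there, with sums of 261 to 335 FPKM against 474 to 1528 FPKM. Of the monocyte list 1 of 5 tested genes was lower, with sums of 6.62 to 33.3 FPKM against 42.6 to 233 FPKM. Of the neutrophil list 0 of 6 passed, with sums of 45.9 to 334 FPKM against 86.5 to 14699 FPKM, and Mpo was at 0 in labelled PU.1 cKO. These lists were uneven within labelled control, and the border macrophage sum of each of its libraries lay above those of labelled PU.1 cKO. The neuron list summed to at most 5.64 FPKM in all 6 libraries. Other lists held a gene that was higher in labelled PU.1 cKO and none that was lower. These were 1 of 5 tested astrocyte genes (76.3 to 80.8 against 19.6 to 47.4 FPKM) and 1 of 6 oligodendrocyte genes (96.8 to 160 against 72.5 to 103 FPKM). Likewise 1 of 4 endothelium genes was higher (18.5 to 23.0 against 7.47 to 22.3 FPKM) and 1 of 2 lymphocyte genes (54.1 to 69.8 against 19.8 to 23.8 FPKM). The part of other cells in the proteasome differences was not tested.

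Other genes of the pathway were read from lists. Of 14 genes that bind or control the proteasome, 3 were lower in labelled PU.1 cKO and 1 higher. Lower were Shfm1 (-1.80 ± 0.21), a small subunit of the 19S particle that the symbol rule does not take, and the proteasome deubiquitinases Uchl5 (-1.46 ± 0.32) and Usp14 (-1.07 ± 0.31). Higher was Akirin2 (0.99 ± 0.20), which serves the nuclear import of proteasomes. Pomp, the maturation factor of the 20S core, measured 175, 161 and 159 FPKM against 311, 202 and 485 FPKM and did not pass (-0.92 ± 0.31, adjusted p = 0.0594 by limma). Of 16 genes of ubiquitin supply and shuttling, 4 were lower and 1 higher. Rps27a, which joins ubiquitin to a ribosomal protein, was lower (-1.71 ± 0.36), as were the activating enzyme Uba1 (-0.94 ± 0.21) and the segregase Vcp (-0.76 ± 0.24). The level of Rps27a is uncertain, as reads can be shared with near-identical pseudogenes.

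The comparison of CK-p25 mice addresses how microglia change when neurons of the hippocampus degenerate, with CK as the control. Here 9 of the 44 tested genes were higher in CK-p25 and 0 lower, against 17.6% and 13.7% of the 10894 genes tested (31.3% in either direction), so the share of proteasome genes called higher was near that of all genes. The 9 were the PA28 genes Psme1 and Psme2, the 20S chaperone gene Psmg4, the beta genes Psmb6, Psmb4, Psmb1 and Psmb7, and the 19S genes Psmd8 and Psmd2. The median log2 difference of the 44 was 0.18, against 0.00 over all genes. As a share of the total FPKM, however, the summed level of the 45 genes overlapped between groups. It was 0.564%, 0.540% and 0.552% in CK and 0.523%, 0.521% and 0.583% in CK-p25. The groups did not overlap for 14 genes that were higher (24.0% of all genes) and for 1, Psmg2, that was lower (22.5% of all genes), and for 46.5% of all genes in either direction.

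The PA28 genes had the largest rises. Psme1 measured 85.5, 83.6 and 94.4 FPKM in CK and 219.9, 209 and 278 FPKM in CK-p25. Every CK-p25 library lay above 2 times the CK mean, and the difference was 1.40 ± 0.13 (adjusted p = 0.000142 by limma). Psme2 measured 75.7, 69.6 and 71.7 FPKM in CK and 153, 124 and 182 FPKM in CK-p25, a difference of 1.06 ± 0.15 (adjusted p = 0.00128 by limma). Neither PA28 gene overlapped between groups, and the other activators did not pass. Psme3 measured 42.4, 38.4 and 35.9 FPKM against 37.5, 37.0 and 39.0 FPKM (-0.04 ± 0.08, 95% interval -0.22 to 0.15). Psme4 measured 4.82, 4.73 and 4.51 FPKM against 4.63, 4.68 and 4.58 FPKM (-0.01 ± 0.08, 95% interval -0.20 to 0.17). Psmf1 differed by 0.11 ± 0.10 and did not pass.

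In the 20S core, 0 of 8 alpha and 4 of 7 beta genes were higher, with medians of 0.18 and 0.28. The genes of the 3 active sites went apart. Psmb6, the caspase-like subunit, measured 119, 96.1 and 109 FPKM in CK and 169, 156 and 189 FPKM in CK-p25, without overlap (0.66 ± 0.11, adjusted p = 0.00319 by limma). Psmb7 measured 48.0, 48.5 and 51.3 FPKM against 59.8, 60.9 and 59.5 FPKM, a small but even rise (0.28 ± 0.09, adjusted p = 0.0411 by limma). Psmb5 measured 125, 118 and 122 FPKM against 133, 117 and 108 FPKM, with overlap (-0.03 ± 0.10, 95% interval -0.26 to 0.19). Psmb4, a beta subunit without an active site, measured 66.0, 59.8 and 70.2 FPKM against 96.2, 85.7 and 72.6 FPKM (0.36 ± 0.12, adjusted p = 0.0471 by limma). Psmb1, also without an active site, measured 109, 99.99 and 102 FPKM against 136, 126 and 131 FPKM (0.33 ± 0.09, adjusted p = 0.0212 by limma). Among alpha genes Psma7 measured 102, 87.9 and 101 FPKM against 122, 108 and 149 FPKM and did not pass although the groups did not overlap (0.37 ± 0.13, adjusted p = 0.0589 by limma). The other alpha genes differed by -0.03 to 0.36, with Psma1 lowest and Psma4 highest.

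The 3 inducible catalytic genes rose beside them. Psmb9 averaged 136 ± 11.8 FPKM in CK-p25 against 55.2 ± 4.24 FPKM in CK (1.29 ± 0.11, adjusted p = 8.94e-05 by limma). Psmb8 averaged 338 ± 57.8 against 140.3 ± 7.58 FPKM (1.25 ± 0.14). Psmb10 rose less, 74.0 ± 13.4 against 53.3 ± 4.05 FPKM (0.45 ± 0.15), and its adjusted p of 0.0499 by limma passed 0.05 only narrowly; it was 0.094 without CK-p25 replicate 3. The sum of the inducible over the constitutive catalytic genes was 0.835, 0.913 and 0.935 in CK and 1.56, 1.38 and 1.75 in CK-p25, below 1 in each CK library and above 1 in each CK-p25 library. Of the 20S chaperones, Psmg4 measured 12.98, 10.4 and 11.05 FPKM in CK and 23.6, 18.9 and 25.6 FPKM in CK-p25 (0.92 ± 0.15, adjusted p = 0.00287 by limma). Psmg1 (0.21 ± 0.14), Psmg2 (-0.23 ± 0.11) and Psmg3 (-0.12 ± 0.14), which serve the same core, did not pass. Psmg4 and Psme1 are also among the 5 genes whose promoter window holds the interferon response-like motif printed above; the other 3, Psmb3, Psmd4 and Psmd9, differed by 0.24 ± 0.11, 0.21 ± 0.12 and 0.05 ± 0.08 and did not pass. In Psme1 and Psmg4 the printed match begins after the start site, 9 and 15 bases from it. Psme2 and Psmb6, which rose as well, are not among these 5 genes. Psme2 matched none of the motifs searched. As only 37 of the 45 genes had a window, a missing window may be the reason. A link between the motif and the rises was not tested.

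Of the 19S particle, 0 of 6 ATPase and 2 of 11 non-ATPase genes were higher. Psmd8 measured 56.1, 57.0 and 58.3 FPKM in CK and 69.7, 67.7 and 83.7 FPKM in CK-p25 (0.36 ± 0.10, adjusted p = 0.0319 by limma). Psmd2 measured 65.7, 67.6 and 64.6 FPKM against 77.0, 77.6 and 96.4 FPKM (0.33 ± 0.10, adjusted p = 0.0346 by limma). Neither overlapped between groups. Psmd14 measured 47.5, 39.9 and 44.2 FPKM against 39.2, 40.0 and 59.0 FPKM (0.05 ± 0.16). Psmd4 measured 53.1, 51.6 and 60.2 FPKM against 60.6, 56.4 and 75.1 FPKM (0.21 ± 0.12). In both genes CK-p25 replicate 3 was the highest of the group. That held for 16 of the 17 genes of the particle, and for 35 of the 44 tested genes, against 43.6% of all genes. Psmc1 showed it most plainly, at 46.3 and 47.1 FPKM in CK-p25 replicates 1 and 2 and 86.4 FPKM in replicate 3, with CK at 57.7, 53.5 and 51.5 FPKM. Without replicate 3, which is also the value within the run of the other 8 libraries, the ATPase median went from 0.14 to -0.03 and the non-ATPase median from 0.10 to -0.01. The beta median went from 0.28 to 0.29. Per gene, the ratio of 20S to 19S levels was 2.25 and 2.11 in CK-p25 replicates 1 and 2 and 1.81 in replicate 3, against 1.84 to 1.94 in CK. Of the 19S chaperones none passed, and Psmd5 had the lowest difference of the 44 genes (-0.32 ± 0.16).

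**Figure D3:**
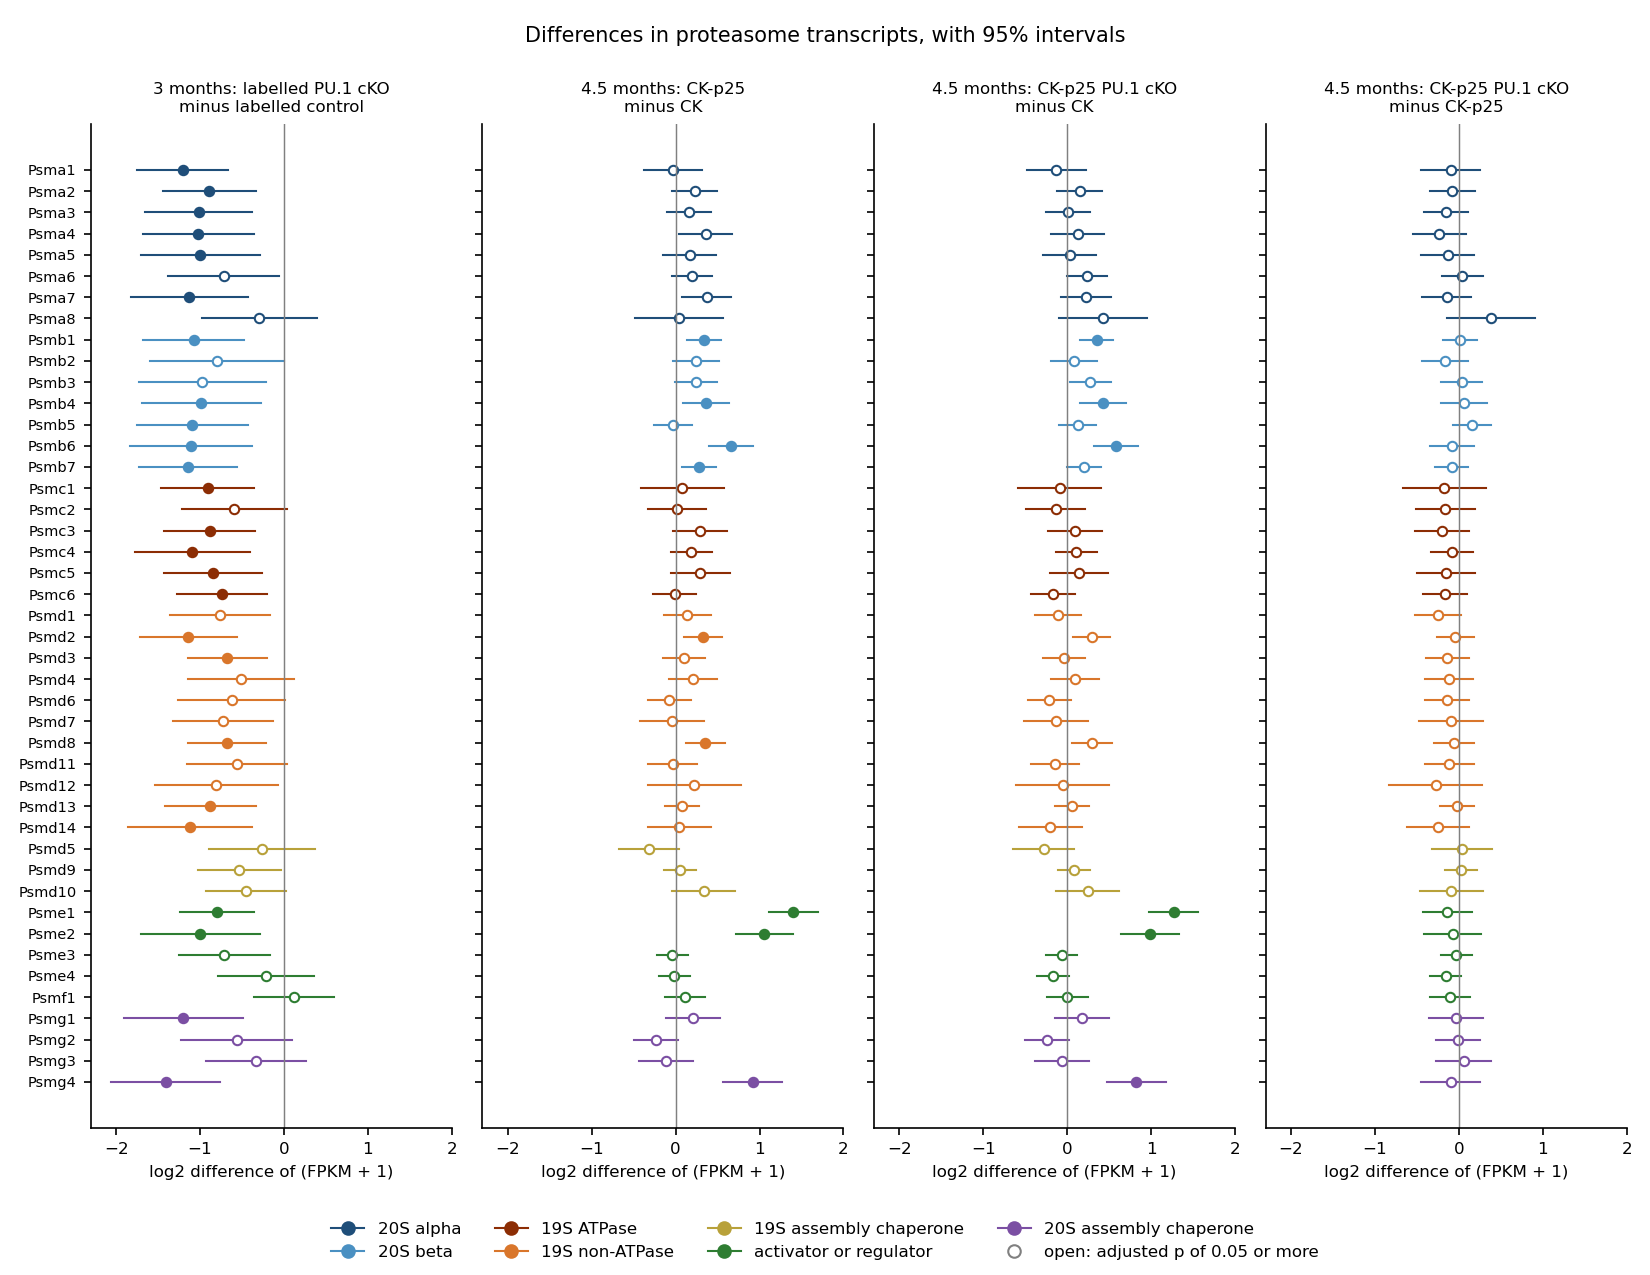
Log2 difference of (FPKM + 1) with its 95% interval (horizontal axes) for each of the 44 tested proteasome genes (rows, coloured by class) in the 4 comparisons; filled points passed an adjusted p of 0.05 (limma). In the first panel 43 of 44 points lie left of 0, in both panels against CK Psme1, Psme2, Psmg4 and Psmb6 stand to the right, and in the last panel no point is filled.

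Without CK-p25 replicate 3 the counts in CK-p25 against CK were 9 higher and 1 lower (Psmd5, -0.46), with 26 positive and 18 negative differences in place of 33 and 11. The median of the 44 genes was then 0.08. Without CK replicates 1, 2 and 3 in turn, 5, 4 and 4 genes were higher. Psme1, Psme2, Psmg4 and Psmb6 passed under every alternative run; Psmb1, Psmb4, Psmb7, Psmd2, Psmd8 and, of the inducible genes, Psmb10 each missed the threshold under several. Quantile normalization left 4 higher (Psme1, Psme2, Psmg4 and Psmb6) and made 4 lower (Psmb5 -0.29, Psmd5 -0.42, Psmd6 -0.27 and Psmg2 -0.33). It moved the share of higher genes among all calls from 56.3% to 45.6%. The median of the 44 genes fell to 0.01, with 22 positive and 22 negative differences, and that of all genes to -0.06.

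**Figure D4:**
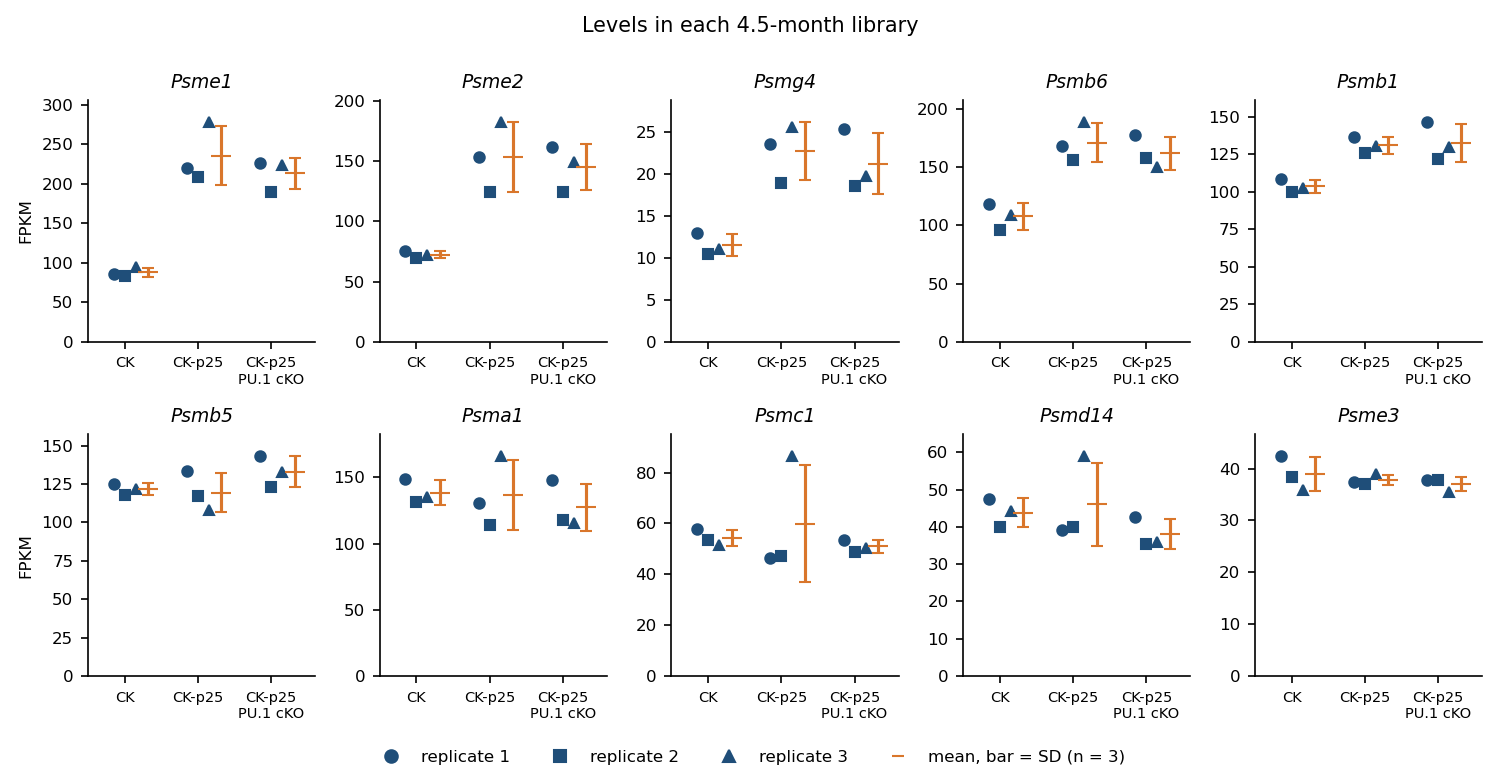
Level in FPKM (vertical axes, from 0) of 10 proteasome genes in the 3 libraries of CK, CK-p25 and CK-p25 PU.1 cKO, with the mean and SD (n = 3). Psme1, Psme2, Psmg4, Psmb6 and Psmb1 are higher in every library of both CK-p25 groups than in CK, while Psmb5, Psma1, Psmc1, Psmd14 and Psme3 overlap, with Psmc1 at 86.4 FPKM in CK-p25 replicate 3.

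Of the 14 other proteasome genes, 3 were higher in CK-p25 and 1 lower. Pomp averaged 224 ± 11.5 FPKM against 141 ± 6.89 FPKM (0.67 ± 0.10). Zfand2a, a stress-induced partner of the 19S particle, averaged 16.4 ± 2.32 against 9.43 ± 0.479 FPKM (0.73 ± 0.11). Nfe2l2, which encodes the transcription factor NRF2, measured 119, 108 and 110.2 FPKM in CK and 144, 154 and 243 FPKM in CK-p25 (0.64 ± 0.18). Akirin2 fell from 67.9 ± 5.47 to 37.4 ± 4.18 FPKM (-0.84 ± 0.10). Of the 16 ubiquitin genes 5 were higher and 0 lower, among them Rps27a (0.99 ± 0.26) and Ubb (0.63 ± 0.18). Rps27a measured 296, 249 and 139.5 FPKM in CK-p25, so for this gene replicate 3 was the lowest library of its group. Markers of other cells changed in the same comparison. Of the microglia list 4 of 9 genes were lower and 1 higher (sums of 25838 to 28214 FPKM in CK and 16974 to 18803 FPKM in CK-p25). Of the astrocyte list 1 of 8 was higher (59.2 to 91.5 against 106 to 408 FPKM), of the oligodendrocyte list 1 of 8 (125 to 192 against 115 to 558 FPKM), and of the monocyte list 1 of 4 tested (3.87 to 14.1 against 15.9 to 34.0 FPKM). Of the endothelium list 2 of 6 tested were higher and 1 lower (16.98 to 20.9 against 9.25 to 49.4 FPKM). None passed of 6 border macrophage, 5 neutrophil, 4 lymphocyte and 3 neuron genes tested, and Mpo was at 0 in all 9 libraries. The part of other cells in these differences was not tested.

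CK-p25 PU.1 cKO was compared with CK to ask the same in mice that also carried PU.1 fl/fl. Spi1 measured 256, 229.7 and 251 FPKM in CK, 251, 208 and 298 FPKM in CK-p25 and, with PU.1 fl/fl, 165, 152 and 224 FPKM. It was thus below every CK library in CK-p25 PU.1 cKO but overlapped with CK-p25, and much of the transcript was still measured. This comparison shares its CK libraries with the one before. Of the 44 genes 6 were higher and 0 lower, against 17.8% and 13.3% of all genes tested (31.1% in either direction), and the median was 0.09. The 6 were Psme1, Psme2, Psmg4, Psmb6, Psmb4 and Psmb1. In these mice Psme1 reached 226, 190.1 and 223 FPKM (1.27 ± 0.13, adjusted p = 0.000224 by limma) and Psme2 161, 124 and 149 FPKM (0.98 ± 0.15, adjusted p = 0.00176 by limma). All 6 of these PA28 values lay above every CK value. Psmg4 measured 25.4, 18.6 and 19.7 FPKM (0.82 ± 0.15, adjusted p = 0.00469 by limma) and Psmb6 178, 158 and 149.9 FPKM (0.58 ± 0.11, adjusted p = 0.00573 by limma). Psmb4 measured 94.2, 81.9 and 88.5 FPKM (0.43 ± 0.12, adjusted p = 0.0257 by limma) and Psmb1 147, 122 and 130.1 FPKM (0.35 ± 0.09, adjusted p = 0.0169 by limma). Of the other catalytic genes, Psmb7 measured 61.9, 50.3 and 57.9 FPKM (0.20 ± 0.09) and Psmb5 143, 123.04 and 133 FPKM (0.12 ± 0.10), and neither passed. Psma7 (0.23 ± 0.13), Psmd4 (0.10 ± 0.12), Psmd14 (-0.20 ± 0.16), Psme3 (-0.07 ± 0.08) and Psme4 (-0.17 ± 0.08) did not pass. Of the 17 genes of the 19S particle 0 passed, with 7 positive and 10 negative differences. Groups did not overlap for 15 higher and 5 lower genes, against 29.4% and 29.1% of all genes, or 58.5% in either direction. Quantile normalization left 4 higher (Psme1, Psme2, Psmg4 and Psmb6) and made 3 lower (Psma1, Psmd6 and Psmg2). It moved the share of higher genes among all calls from 57.2% to 45.9%. The median of the 44 genes became -0.07, with 15 positive and 29 negative differences, and that of all genes -0.07. The summed level of the 45 genes made up 0.566%, 0.537% and 0.531% of the total FPKM in CK-p25 PU.1 cKO. Psmb9 (1.26 ± 0.11) and Psmb8 (1.21 ± 0.14) were higher, Psmb10 did not pass (0.39 ± 0.15), and the ratio of inducible to constitutive catalytic genes was 1.54, 1.46 and 1.51. Markers of other cells moved in this comparison too. Of the microglia list 6 of 9 genes were lower (15526 to 17498 FPKM, against the CK sums given above). Of the astrocyte list 2 of 8 were higher (102 to 271 FPKM), of the oligodendrocyte list 1 of 8 (171 to 392 FPKM) and of the monocyte list 1 of 4 (34.9 to 52.4 FPKM). Of the endothelium list 2 of 6 were higher and 1 lower (13.7 to 31.8 FPKM), and of the lymphocyte list 1 of 4 was lower (7.41 to 44.4 FPKM, against 30.5 to 37.2 FPKM in CK). Their part in the proteasome differences was not tested.

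CK-p25 PU.1 cKO was compared with CK-p25 to ask what PU.1 fl/fl changes in the degenerating hippocampus; Spi1 overlapped between these groups, as given above. None of the 44 genes passed (limma): 0 were called at an adjusted p under 0.05 and 0 had an unadjusted p under 0.05. Over all 10894 genes 0% were called and 671 genes had an unadjusted p under 0.05. The differences were negative for 35 genes and positive for 9, with a median of -0.09 against 0.00 over all genes. The groups did not overlap for 2 genes, Psmd1 and Psme4, both lower, against 4.56% of all genes that were lower and 9.38% in either direction. The 4 genes with the smallest p were Psmd1, Psma8, Psma4 and Psme4, each with an adjusted p of 0.745 by limma. Psmd1, the other large scaffold of the 19S particle, stood at 44.7, 41.4 and 40.9 FPKM with PU.1 fl/fl and at 45.1, 46.2 and 61.9 FPKM without it (-0.25 ± 0.12, 95% interval -0.53 to 0.02). Psme4 measured 3.97, 4.12 and 4.08 FPKM against 4.63, 4.68 and 4.58 FPKM, an even but small step (-0.16 ± 0.08, 95% interval -0.34 to 0.03). Psma4 measured 88.4, 71.5 and 76.5 FPKM against 82.1, 84.4 and 113.6 FPKM, with overlap (-0.23 ± 0.14). Psma8 measured 2.71, 3.34 and 2.52 FPKM against 2.02, 2.93 and 1.13 FPKM (0.39 ± 0.23). The intervals show what these libraries leave room for: Psme1 differed by -0.14 ± 0.13 (95% interval -0.43 to 0.15), Psme2 by -0.07 ± 0.15 (-0.42 to 0.27) and Psmb6 by -0.08 ± 0.11 (-0.34 to 0.18). All 17 genes of the 19S particle had negative differences, but without CK-p25 replicate 3 the 44 genes split into 24 positive and 20 negative, with a median of 0.01.

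The genes that led at 4.5 months did not all lead at 3 months, where no library is shared with the later table. Set side by side, Psmg4 differed by -1.41 at 3 months and 0.92 in CK-p25 against CK, Psme1 by -0.80 and 1.40, and Psmb6 by -1.11 and 0.66. Psma1 and Psmb5, among the larger differences at 3 months (-1.21 and -1.09), differed by -0.03 and -0.03 in CK-p25. Psmb9 was the reverse, at -0.02 and 1.29. No test of the difference between the tables was made, since they were normalized separately. The comparisons are also unlike: the groups differ in PU.1 at 3 months and in p25 at 4.5 months.

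**Figure D5:**
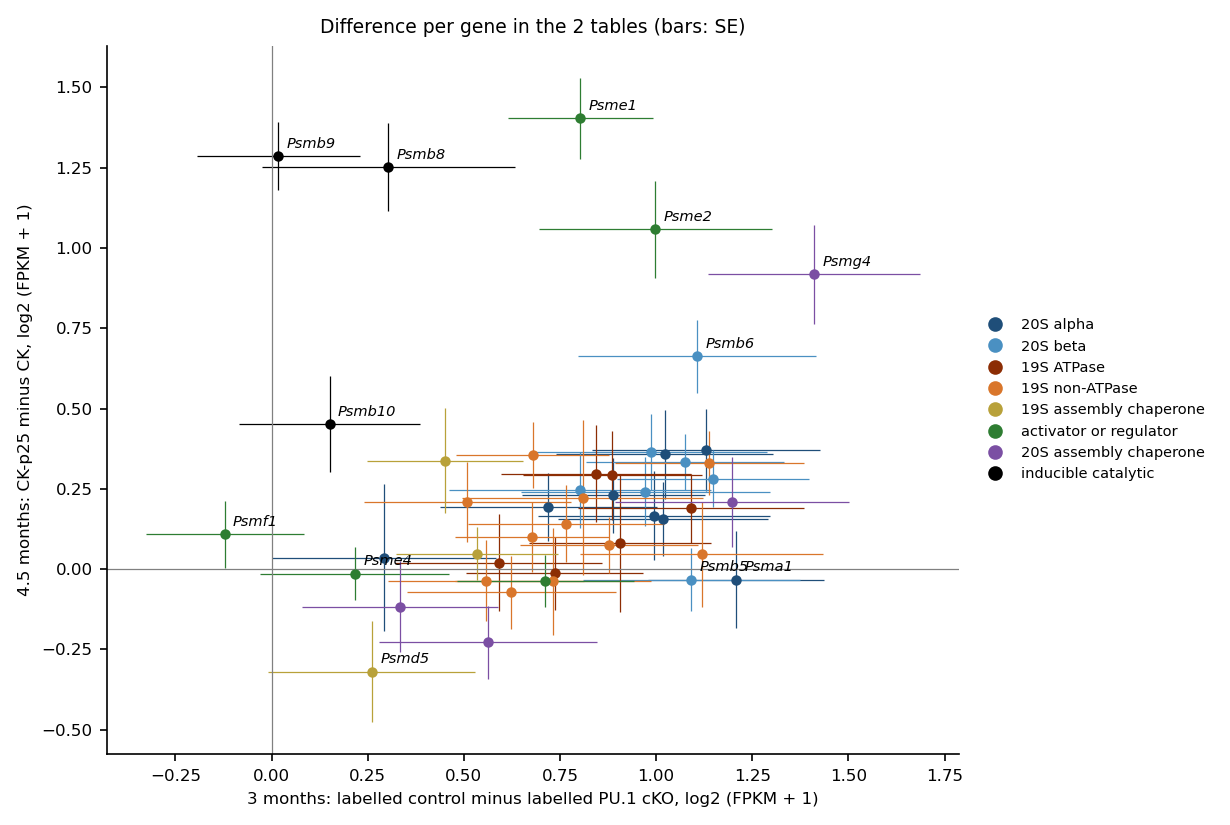
Log2 difference of (FPKM + 1) with its SE for each proteasome gene and the 3 inducible catalytic genes, at 3 months (horizontal axis, drawn as labelled control minus labelled PU.1 cKO) and at 4.5 months (vertical axis, CK-p25 minus CK). Of the tested proteasome genes 43 of 44 lie right of 0, most 20S and 19S genes stay low on the vertical axis, Psme1, Psme2, Psmb8 and Psmb9 are high on the vertical axis, and Psmg4 is high on both axes.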

How the data were processed

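The authors deposited FPKM values per gene in 2 tables, one for the 6 libraries of 3 months and one for the 9 libraries of 4.5 months; the submitters' processing notes name TopHat, Bowtie, Cufflinks 2.0.0 and mm9. Per the labels' protocols, cDNA came from a low-input kit and libraries from a tagmentation kit, which do not mark strand. FPKM is not a count, so the read depth is unknown; summed FPKM, no measure of depth, ran from 449784 to 650063. From low genes, 1 read was worth 0.763 to 1.01 times its value in labelled PU.1 cKO replicate 1 at 3 months, and up to 1.45 times its value in CK replicate 1 at 4.5 months (CK-p25 replicate 3).

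Columns were matched to samples by the descriptions. Values were taken as log2(FPKM + 1), for genes averaging 1 FPKM or more in the table, and compared with limma 3.58.1 in R 4.3.3 (mean-variance trend, two-sided, Benjamini-Hochberg adjustment over all genes tested, threshold 0.05), each table in a fit of its own; the fit was tested on simulated data. Differences are log2 values with the model's SE, and on this scale changes of low genes come out too small. Alternatives changed the pseudocount, filter, scaling, trend, replicate block and libraries. The members and lists were chosen with earlier results of these data known. Library values are given for the catalytic genes, Psma7, Psmd4, Psmd14 and Psme1 to Psme4, for the 6 largest rises and falls among genes called in each CK comparison and for the 4 smallest p elsewhere; of other lists, the 3 largest rises and falls in CK-p25 against CK. Other genes were named after their values were seen. A few genes of the other lists are counted in their lists but not reported here by name. The 4 chromatin samples were not analysed here.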

Additional observations from a re-analysis of the deposited data

How the results depend on the processing

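Read depth is unknown, so no limit of detection can be given, and 3 libraries a group limit the precision. No gene with library values given by rule changed sign under an alternative run where it was called in the main or that run. Over these genes, called or not, and all alternatives, 1009 results kept their side of the threshold, 102 fell short of it and 11 passed it newly. The 1009 include results that were never called, such as all those of CK-p25 PU.1 cKO against CK-p25, so they are no measure of how firm the calls are. The number of proteasome genes lower in labelled PU.1 cKO, 25, was 13 with no filter on low values and 18 with median centring. Leaving out each library in turn gave 2 to 40. In CK-p25 against CK, 9 genes higher became 4 and 0 lower became 4 after quantile normalization, and leaving out each library gave 4 to 9 higher and 0 to 1 lower; with no filter 1 was lower. In CK-p25 PU.1 cKO against CK, 0 lower became 3 after quantile normalization, and leaving out each library gave 4 to 8 higher and 0 to 1 lower. The cause of these changes was not tested. Between CK-p25 PU.1 cKO and CK-p25 0 proteasome genes were called under every alternative run. Same-numbered libraries did not deviate together throughout (correlations of 0.17, 0.16 and -0.05 at 3 months, and of -0.02 to 0.13 at 4.5 months). Libraries of unlike number had correlations of -0.26 to 0.12 at 3 months. No pairing by number was assumed, and so few libraries cannot exclude one. With the replicate block 28 genes were lower at 3 months, 6 higher in CK-p25 and 6 higher in CK-p25 PU.1 cKO.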
